A study of Homo sapiens with 12 samples.

Results

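EGR1, EGR2, EGR3, IER2, IER3, NR4A1, KLF2, KLF4, KLF6 and SIK1 are genes that cells switch on within minutes of a stimulus, without new protein synthesis, and that do not belong to the FOS and JUN families. They were found by their Ensembl identifiers among the 63568 rows of a table of gene counts, where all 10 matched 1 row each, and all 10 were among the 25249 genes that passed the filter on low counts and were tested. The counts came from RNA-seq of MDA-MB-231, a human triple-negative breast cancer cell line, labelled wild type and carrying GFP, suspended in Matrigel (a basement membrane gel). There were 12 samples, 2 for each of 6 conditions. C1 was untreated on day 2, C2 was untreated on day 4, and the other 4 conditions received Paclitaxel at 0.0005, 0.005, 0.05 or 0.5 μM, given on the 2nd day according to the labels, and were taken on day 4. The study's methods give a later day of treatment for the imaging experiments whose procedure the RNA-seq followed, so the length of exposure rests on the labels alone. Paclitaxel stabilizes microtubules and stops cells from dividing and moving. The samples were 2 replicates of 1 cell line, and the cells had been freed from the gel by 30 min in collagenase and dispase at 37 °C before lysis.

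Immediate early genes are induced through 2 main routes. Signals along the ERK pathway and from the actin cytoskeleton act on the serum response factor SRF, which binds CArG boxes with its partners of the ternary complex factor and MRTF families, while cAMP and calcium signals act on CREB, which binds the cAMP response element. EGR1, EGR2 and EGR3 are zinc finger transcription factors of 1 family, NR4A1 is an orphan nuclear receptor, KLF2, KLF4 and KLF6 are Krüppel-like zinc finger factors, SIK1 is a salt-inducible kinase that restrains the CREB coactivators of the CRTC family, and IER2 and IER3 are small proteins of the early response.

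On GRCh37, with genes as annotated in GENCODE, EGR1 lies at chr5:137801168-137804992 on the plus strand, IER2 at chr19:13261225-13265725 (plus), KLF2 at chr19:16435637-16439496 (plus) and NR4A1 at chr12:52416616-52453291 (plus). On the minus strand lie EGR2 (chr10:64571756-64578927), IER3 (chr6:30710976-30712325), KLF4 (chr9:110247133-110252763), KLF6 (chr10:3818188-3827473) and SIK1 (chr21:44834363-44847011), as well as EGR3. The counts were taken over exons, and whether strand was used is not given in the sources used here. Antisense genes that overlap EGR3, IER2, NR4A1 and IER3 and were in the table held at most 3.45% of the count of their partner in any sample.

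The RefSeq promoter table, which gives a window around each annotated start on GRCh38.p14, most of it before the start, held 11 entries for 8 of the genes, all of which occur unchanged in GRCh37. Printed here are the entries of EGR1, EGR2, SIK1 and KLF4, which show the 2 kinds of element named above in genes called in opposite directions after treatment. Capitals mark CArG boxes (10 letters starting with CC and ending with GG) and the half-site of the cAMP response element, TGACG or CGTCA on the other strand. Both strands were searched.
EGR1, chr5:138465229-138465528, plus strand: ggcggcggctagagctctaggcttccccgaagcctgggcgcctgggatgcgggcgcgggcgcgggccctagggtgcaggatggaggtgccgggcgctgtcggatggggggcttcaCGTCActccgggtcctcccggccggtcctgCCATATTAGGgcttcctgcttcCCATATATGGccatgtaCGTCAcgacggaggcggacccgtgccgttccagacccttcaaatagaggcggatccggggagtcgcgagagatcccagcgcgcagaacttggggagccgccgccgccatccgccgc
EGR2, chr10:62816317-62816616, minus strand: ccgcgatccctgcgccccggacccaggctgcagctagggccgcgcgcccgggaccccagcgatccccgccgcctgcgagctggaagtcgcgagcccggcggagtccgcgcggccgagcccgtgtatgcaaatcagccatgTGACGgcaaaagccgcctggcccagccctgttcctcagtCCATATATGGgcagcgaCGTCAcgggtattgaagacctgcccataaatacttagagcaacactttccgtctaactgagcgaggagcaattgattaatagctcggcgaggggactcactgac
SIK1, chr21:43427082-43427381, minus strand: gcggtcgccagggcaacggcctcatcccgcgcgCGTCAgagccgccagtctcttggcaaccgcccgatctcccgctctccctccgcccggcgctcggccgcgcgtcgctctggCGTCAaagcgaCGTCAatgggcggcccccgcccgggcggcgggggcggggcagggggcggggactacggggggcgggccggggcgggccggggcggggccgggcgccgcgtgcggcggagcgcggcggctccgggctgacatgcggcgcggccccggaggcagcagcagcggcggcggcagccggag
KLF4, chr9:107489720-107490019, minus strand: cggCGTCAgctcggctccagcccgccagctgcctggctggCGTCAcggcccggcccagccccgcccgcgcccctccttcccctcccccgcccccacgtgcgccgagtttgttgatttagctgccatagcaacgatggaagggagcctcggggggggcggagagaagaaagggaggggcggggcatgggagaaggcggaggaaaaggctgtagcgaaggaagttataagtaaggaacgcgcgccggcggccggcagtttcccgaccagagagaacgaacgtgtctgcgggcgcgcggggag

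CArG boxes stood in EGR1, at -105 to -96 and -83 to -74 from the annotated start, and in EGR2, at -71 to -62. The other entries, including the other starts of EGR2, held none, and 1.3% of all 34796 promoter entries held at least 1. The half-site occurred in EGR1, EGR2, KLF4, SIK1 and IER2 and in 24.5% of all entries. The entries of NR4A1, KLF2 and KLF6 held neither element. These letters are a description of these windows and do not show that a factor was bound.

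The samples held between 38380629 and 79169121 counts, with a median of 65977095.5. Levels are given in CPM, each library's counts brought to a common total with TMM factors, so each value is a share of the RNA of a bulk sample, in which fewer expressing cells and less RNA per cell cannot be told apart. The cells carried the markers of the line, with VIM between 797 and 1370 CPM and CD44 between 237 and 388 CPM, while of 5 genes listed as absent or very low ESR1, PGR and CDH1 stayed at or below 0.46 CPM, EPCAM lay between 4.37 and 6.77 CPM and ERBB2 between 26.6 and 52.4 CPM. Of 3 luminal markers, KRT19 was clearly present at 144 to 277 CPM, FOXA1 lay between 5.25 and 9.29 CPM and GATA3 between 1.58 and 4.44 CPM. The summed level of 3 leukocyte markers was at most 0.374 CPM, that of 2 endothelial markers at most 1.15 CPM and that of 6 fibroblast markers between 8.83 and 19.6 CPM. Differences are log2 fold changes from edgeR's quasi-likelihood test, given with their standard error (SE), and a gene was called at a Benjamini-Hochberg adjusted p-value under 0.05 over all 25249 genes.

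The 8 Paclitaxel-treated samples split the 10 genes into opposite directions relative to the 4 untreated samples. EGR1, EGR2, IER2 and IER3 were higher, NR4A1, SIK1, KLF2 and KLF4 were lower, and EGR3 and KLF6 were not called. The 4 lower genes compare with 11.3% of all tested genes called lower in this comparison, and the 4 higher genes with 13.1% called higher. The median log2 fold change was -0.19 over the 10 genes and -0.0019 over all genes tested.

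EGR1, which responds to growth factors and mechanical stress, had 148 and 74.5 CPM in C1, 125 and 113 CPM in C2, 242 and 226 CPM at 0.0005 μM, 195 and 203 CPM at 0.005 μM, 474.5 and 503 CPM at 0.05 μM, and 324 and 278 CPM at 0.5 μM. Every treated sample was above every untreated one, and both samples at 0.05 μM stood far above the other doses. Against the untreated samples EGR1 rose by 1.41 on the log2 scale (SE 0.26, adjusted p = 0.00126). EGR2, which carries myelination and T cell programmes in other tissues, was a far weaker signal, with 2.92 and 1.64 CPM in C1, 4.60 and 2.7 CPM in C2, 6.90 and 6.16 CPM at 0.0005 μM, 4.97 and 4.89 CPM at 0.005 μM, 9.0 and 8.65 CPM at 0.05 μM, and 6.74 and 6.20 CPM at 0.5 μM. Its treated samples were likewise all above its untreated ones, though the gap between the groups was small, from 4.60 to 4.89 CPM. EGR2 rose by 1.15 (SE 0.22, adjusted p = 0.00157). Such a full separation upwards held for 7.39% of all tested genes.

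EGR3, the third member of the family here, was not called. Its levels were 3.62 and 2.42 CPM in C1, 6.96 and 3.94 CPM in C2, 4.00 and 3.5 CPM at 0.0005 μM, 2.71 and 2.64 CPM at 0.005 μM, 2.44 and 3.18 CPM at 0.05 μM, and 2.30 and 2.17 CPM at 0.5 μM. The untreated and treated samples overlapped, and only C2 replicate 1 stood well apart from the rest. The difference was -0.57 (SE 0.22, adjusted p = 0.0659), and it was -0.91 (adjusted p = 0.0126) with C2 as the only control. DESeq2 called it at -0.58 (adjusted p = 0.0464). Within a sample, EGR1 held between 18 and 40.8 counts for each count of EGR3 in the untreated samples and between 60.4 and 194 in the treated ones.

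NR4A1, also called Nur77, showed the largest difference of the 10 genes. It had 191 and 67.6 CPM in C1, 168 and 93.9 CPM in C2, 39.2 and 30.6 CPM at 0.0005 μM, 30.4 and 26.6 CPM at 0.005 μM, 26.2 and 38.4 CPM at 0.05 μM, and 28.1 and 25.3 CPM at 0.5 μM. All treated samples lay below all untreated ones and within a narrow range, whereas the untreated replicates were far apart. NR4A1 fell by 2.09 on the log2 scale (SE 0.20, adjusted p = 6.71e-06). Per sample, EGR1 held 0.744 to 1.2 counts for each count of NR4A1 without the drug and 6.17 to 18.1 counts with it.

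SIK1 had 175 and 83.8 CPM in C1, 199 and 106 CPM in C2, 74.0 and 56.5 CPM at 0.0005 μM, 53.2 and 51.4 CPM at 0.005 μM, 61.4 and 73.3 CPM at 0.05 μM, and 55.1 and 49.2 CPM at 0.5 μM. The groups did not overlap here either, a separation downwards that held for 5.77% of all tested genes. SIK1 fell by 1.25 (SE 0.18, adjusted p = 0.00015). A second gene model on the same strand, classed in the annotation as an artifact, overlaps its exons and had no row in the table.

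Of the Krüppel-like factors, KLF2 and KLF4 fell and KLF6 was not called. KLF2, known for its role in blood vessel lining and quiescent T cells, had 52.7 and 22.5 CPM in C1, 40.1 and 29.5 CPM in C2, 23.3 and 19.5 CPM at 0.0005 μM, 12.4 and 12.6 CPM at 0.005 μM, 14.7 and 16.0 CPM at 0.05 μM, and 11.3 and 8.15 CPM at 0.5 μM. The treated samples overlapped the untreated ones through 1 sample at 0.0005 μM that exceeded C1 replicate 2, and KLF2 fell by 1.30 (SE 0.23, adjusted p = 0.000781). KLF4, a pluripotency factor that also acts in epithelial differentiation, had 135 and 84.0 CPM in C1, 173 and 135 CPM in C2, 96.4 and 78.2 CPM at 0.0005 μM, 63.8 and 66.3 CPM at 0.005 μM, 75.5 and 80.3 CPM at 0.05 μM, and 58.0 and 50.9 CPM at 0.5 μM. Here again 1 sample at 0.0005 μM exceeded C1 replicate 2, and KLF4 fell by 0.89 (SE 0.17, adjusted p = 0.00127). KLF6 had 218 and 199.5 CPM in C1, 313 and 338 CPM in C2, 389 and 338 CPM at 0.0005 μM, 294 and 310 CPM at 0.005 μM, 291 and 312 CPM at 0.05 μM, and 246 and 256 CPM at 0.5 μM. Both C1 samples were below all treated ones, while the C2 samples lay within the treated range. The difference of KLF6 was 0.19 (SE 0.15, adjusted p = 0.385), with a 95% interval from -0.13 to 0.51.

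The IER genes were both higher in the treated samples. IER2 had 56.0 and 32.1 CPM in C1, 52.8 and 43.7 CPM in C2, 74.6 and 72.3 CPM at 0.0005 μM, 55.1 and 56.9 CPM at 0.005 μM, 87.0 and 88.4 CPM at 0.05 μM, and 66.2 and 62.3 CPM at 0.5 μM. Only 1 treated sample, at 0.005 μM, was below an untreated one, and IER2 rose by 0.61 (SE 0.16, adjusted p = 0.00979). IER3, a regulator of cell survival, had 161 and 149 CPM in C1, 294 and 245 CPM in C2, 408 and 359 CPM at 0.0005 μM, 289.9 and 297 CPM at 0.005 μM, 328 and 311 CPM at 0.05 μM, and 307 and 269 CPM at 0.5 μM. The untreated samples of day 2 were far below all others, and those of day 4 lay close to the treated samples. IER3 rose by 0.60 (SE 0.17, adjusted p = 0.0154) against both untreated days, while against C2 alone its difference was 0.26 (adjusted p = 0.233) and without C1 replicate 1 it was 0.47 (adjusted p = 0.0656).

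**Figure D1:**
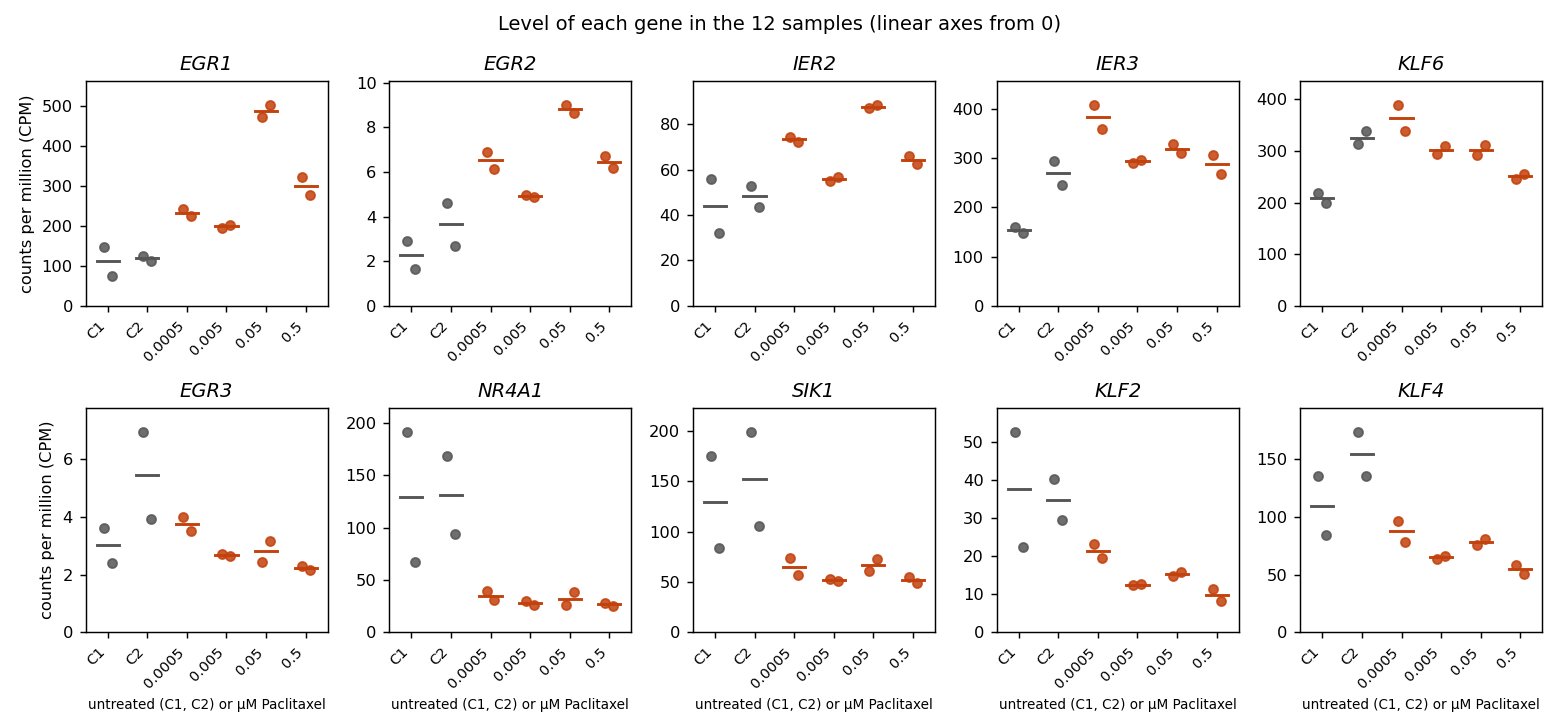
Level of each of the 10 genes in each of the 12 samples, in CPM on linear axes that start at 0 (grey: untreated C1 and C2, orange: Paclitaxel at 4 doses in μM, points: the 2 samples of a condition, bars: their mean). EGR1 and EGR2 lie above all untreated samples in the 8 treated samples, and NR4A1 and SIK1 lie below them.

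Between the untreated days, none of the 10 genes was called by edgeR, against 0.00396% of all genes called lower and 0.321% called higher on day 4. With an unadjusted p-value under 0.05 there were 5 genes, and 2524 of all 25249, and DESeq2 called 2, IER3 and KLF6, and 274 over all genes. IER3 was 0.80 higher on day 4 than on day 2 (SE 0.15, adjusted p = 0.0518) and KLF6 0.64 higher (SE 0.14, adjusted p = 0.106). For NR4A1 the difference was 0.017 (SE 0.39), an interval wide enough to hold changes from -0.83 to 0.86.

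Each dose was then compared with C2, the untreated samples of the same day. These 4 comparisons share the C2 samples, so their values stand side by side and are no independent support for each other. At 0.0005 μM edgeR called only NR4A1, lower, against 0.479% of all genes called lower and 1.87% called higher. DESeq2 also called EGR1, EGR2 and IER3 higher and SIK1 and KLF4 lower at this dose, where calls over all genes rose from 592 to 1173. At 0.005 μM NR4A1, SIK1, KLF2 and KLF4 were lower, against 0.776% lower and 2.5% higher among all genes. At 0.05 μM EGR3 joined these 4, and EGR1, EGR2 and IER2 were higher, which makes 5 lower and 3 higher where 3.23% and 5.09% of all genes were called. At 0.5 μM the same 5 genes were lower and only EGR1 was higher, against 1.96% and 4.36% of all genes.

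NR4A1 was the gene called at every dose. Its log2 fold change against C2 was -1.91 (SE 0.40, adjusted p = 0.029) at 0.0005 μM, -2.20 (SE 0.41, adjusted p = 0.014) at 0.005 μM, -2.02 (SE 0.41, adjusted p = 0.0116) at 0.05 μM and -2.30 (SE 0.41, adjusted p = 0.00853) at 0.5 μM. EGR1 was 0.97, 0.74, 2.04 and 1.34 higher at the 4 doses in rising order, and was called at 0.05 μM (SE 0.25, adjusted p = 0.000829) and at 0.5 μM (SE 0.25, adjusted p = 0.00986). KLF2 differed by -0.70, -1.48, -1.18 and -1.84 and KLF4 by -0.82, -1.25, -0.99 and -1.50 in the same order. Both were called at the 3 upper doses, KLF4 with an adjusted p of 0.00291 at 0.5 μM. KLF2's calls at 0.005 μM (adjusted p = 0.0258) and 0.05 μM (adjusted p = 0.0375) were lost in 6 and 8 of 12 fits that each left out 1 sample, samples of other doses among them, while the log2 fold change stayed between -1.69 and -1.24 and between -1.40 and -0.95.

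The remaining genes are given in the same order of dose. EGR2 was 0.83, 0.43, 1.27 and 0.82 above C2 and IER2 0.61, 0.22, 0.86 and 0.41, and both were called at 0.05 μM alone (adjusted p = 0.0126 for EGR2 and 0.0264 for IER2, the latter lost in 7 of 12 fits without 1 sample). SIK1 differed by -1.23, -1.55, -1.18 and -1.55 and EGR3 by -0.54, -1.03, -0.95 and -1.29. Their calls at 0.05 μM were close to the threshold, with adjusted p-values of 0.0441 and 0.0485, and both were lost with a filter of mean count 10, with named identifiers alone and without any 1 of 9 samples, samples of other doses among them. EGR3 also lost its call with both untreated days as control, and SIK1 with the 4 samples of the comparison alone. IER3 (0.51, 0.12, 0.25 and 0.096) and KLF6 (0.16, -0.11, -0.11 and -0.38) were not called at any dose.

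With 2 samples per condition, the calls against C2 changed when single samples were left out. A fit that leaves 1 sample in a condition takes its spread from the other conditions, and the lone sample is assumed to vary as they do. C2 replicate 1 had the higher level of the C2 pair for 9 of the 10 genes, and without it 0 genes were called at both lower doses, 2 at 0.05 μM (EGR1 and EGR2) and 1 at 0.5 μM (KLF4), while the directions of all 10 genes stayed. Calls over all genes fell likewise, from 592, 827, 2100 and 1596 to 144, 85, 321 and 129 in rising order of dose. At 0.5 μM NR4A1 was then -1.82 (adjusted p = 0.0969), SIK1 -1.03 (adjusted p = 0.219) and EGR1 1.42 (adjusted p = 0.093). Without either sample of the dose itself, 0 genes were called at both lower doses, 1 at 0.05 μM and 2 at the highest dose, and leaving out 0.05 μM replicate 2 also ended the call at 0.0005 μM. Calls over all genes fell there too, to 189 and 164, 175 and 184, 858 and 436, and 480 and 259 without replicate 1 and 2 of each dose in rising order. The C1 samples are no part of these differences but enter the shared spread, the filter on low counts and the adjustment. Without either of them, with 26785 or 26797 genes tested, 8 genes were called at 0.0005 μM, 6 at 0.005 μM and 9 at 0.5 μM, all in the directions given here. Over all genes the calls rose as well, to 2472, 3316 and 4955 without C1 replicate 1 and to 2552, 3231 and 5046 without C1 replicate 2.

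**Figure D2:**
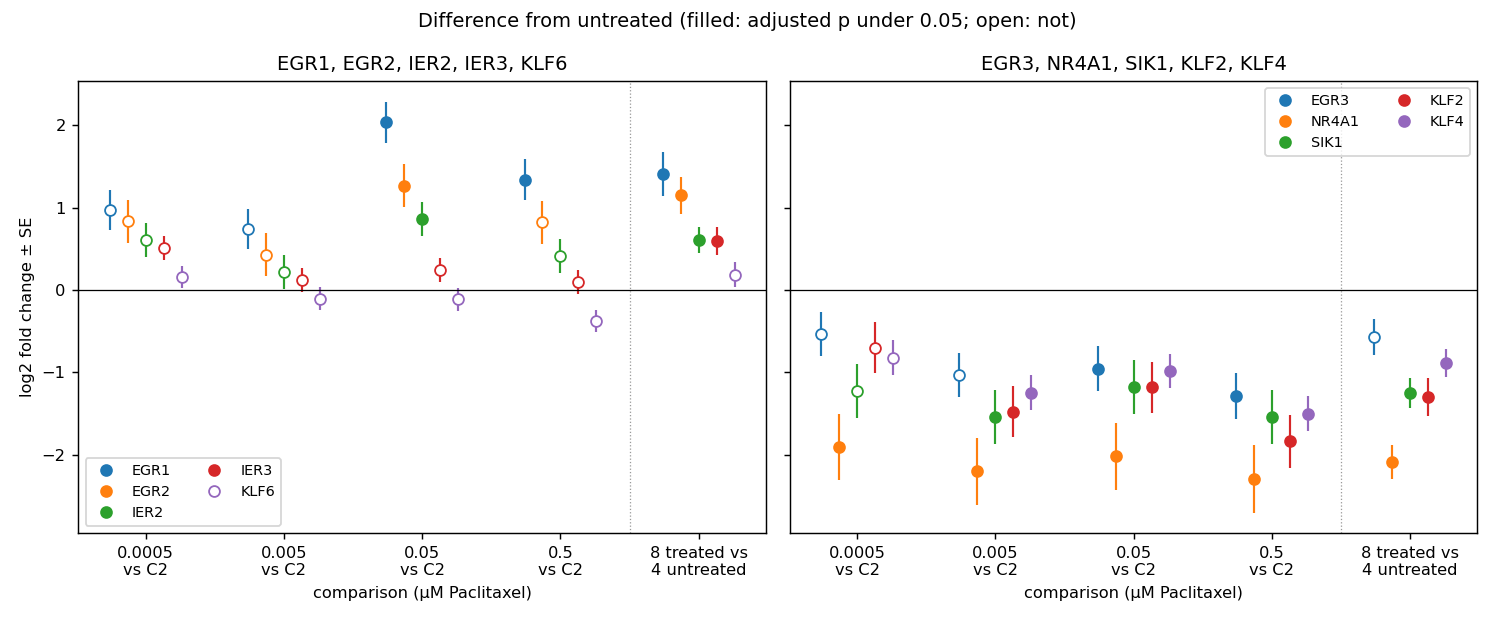
Log2 fold change of each gene against C2 at each dose in μM, and of the 8 treated against the 4 untreated samples at the right of each panel (points: edgeR estimate, bars: SE, filled: adjusted p under 0.05, open: not). EGR1, EGR2 and IER2 peak at 0.05 μM, where EGR1 reaches 2.04, while NR4A1 stays between -1.91 and -2.30 at every dose.

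Across the 4 doses alone, which uses no untreated sample for the difference, KLF2 was the only one of the 10 genes whose slope edgeR called. It was -0.31 in log2 per 10-fold dose (SE 0.073, adjusted p = 0.0382), against 2.04% of all genes with a called negative slope and 1.02% with a positive one. Leaving out either sample at 0.0005 μM or at 0.5 μM ended that call. A block for the replicate number ended it too (edgeR adjusted p = 0.0556), with calls over all genes falling from 773 to 420. KLF6 had a slope of -0.16 (adjusted p = 0.0557), EGR3 -0.22 (adjusted p = 0.0693) and KLF4 -0.18 (adjusted p = 0.0972). DESeq2 called the slopes of KLF2, KLF6, EGR3 and KLF4, and 1635 over all genes. Between 0.5 and 0.0005 μM directly, edgeR called 0 of the 10 genes (0.337% of all genes lower, 0.0753% higher), while 5 had an unadjusted p-value under 0.05, as did 3719 of all 25249 genes, and DESeq2 called 2, KLF2 and KLF6, and 592 over all genes. KLF2 was -1.14 (SE 0.32, adjusted p = 0.153) in that comparison.

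EGR1, EGR2 and IER2 had their highest levels at 0.05 μM rather than at the ends of the dose range. The steps between neighbouring doses were compared after this pattern had been seen. From 0.005 to 0.05 μM EGR1 differed by 1.30 (SE 0.25, adjusted p = 0.316), EGR2 by 0.84 (SE 0.25, adjusted p = 0.798) and IER2 by 0.65 (SE 0.21, adjusted p = 0.798). From 0.05 to 0.5 μM all 10 genes had negative differences, from -0.70 for EGR1 (SE 0.24, adjusted p = 0.893) to -0.15 for IER3. Of all 25249 genes 10921 were lower in that step. In both steps edgeR called 0% of all genes lower and 0% higher, with 3 and 2 of the 10 genes at an unadjusted p-value under 0.05, where 1569 and 649 of all genes had one. DESeq2 called only EGR1 of the 10 in the first step and none in the second, with 30 and 4 calls over all genes.

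The replicates of a condition differed in a common direction. In each of the 6 conditions the sample with the smaller share of mitochondrial counts had the higher level for most of the 10 genes. These were 10 genes in C1, 9 in C2, and 10, 6, 8 and 9 at the 4 doses in rising order, where between 47.2% and 52.1% of all tested genes were higher in that sample. EGR1, IER2, KLF2 and KLF4 were higher in it in all 6 conditions, as were 3.21% of all tested genes. The mitochondrial share was 4.19% to 7.74% in the untreated and 3.73% to 6.18% in the treated samples, with the highest value in C1 replicate 2, which also had the fewest counts. Its part in the differences between treated and untreated samples was not tested. Without C1 replicate 2 the numbers called in the comparison of 8 treated with the untreated samples were 5 lower and 4 higher, EGR3 being added, while calls over all genes rose from 6155 of 25249 to 7078 of 26797.

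NR4A1, SIK1 and KLF2 varied between replicates more than most genes of like abundance. Their biological coefficients of variation were 27.4%, 22.9% and 21.9%, at or above the 97.2 percentile of such genes, against 15.6% for all genes together. IER3 and KLF6 had 11.8% and 11.1%. The gap between the replicates of NR4A1 was 1.5 in log2 in C1 and 0.842 in C2.

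Per kilobase of exon, IER3 was the most abundant, at a mean of 211 CPM per kb over the 12 samples, followed by EGR1 (77.2), KLF6 (47.6), KLF4 (25), IER2 (20.2), SIK1 (16.6), NR4A1 (8.75), KLF2 (7.77), EGR2 (1.47) and EGR3 (0.660). This order pools treated and untreated samples. In C2 EGR1 (37.9 CPM per kb) stood below KLF6 (53.0) and KLF4 (42.1), and SIK1 (29.3) and NR4A1 (18.0) above IER2 (15.7). Of neighbours in the pooled order, KLF2 and EGR2 alone had ranges over the 12 samples that did not overlap.

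Across the 12 samples, which share the split into treated and untreated, most of the genes fell into 2 sets. Pearson's r of log2 CPM was 0.934 between EGR1 and EGR2, 0.935 between EGR1 and IER2, and 0.948 between EGR2 and IER2. It was 0.978 between NR4A1 and SIK1, 0.948 between KLF2 and KLF4, and 0.94 between KLF4 and SIK1. EGR3 went with the second set, with 0.877 to KLF4 and -0.341 to EGR1. KLF6, in neither set, was nearest to IER3, at 0.83. By Spearman's rank correlation KLF6 was at 0.559 to IER3 and at 0.706 to EGR3. Between EGR1 and NR4A1 r was -0.652.

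**Figure D3:**
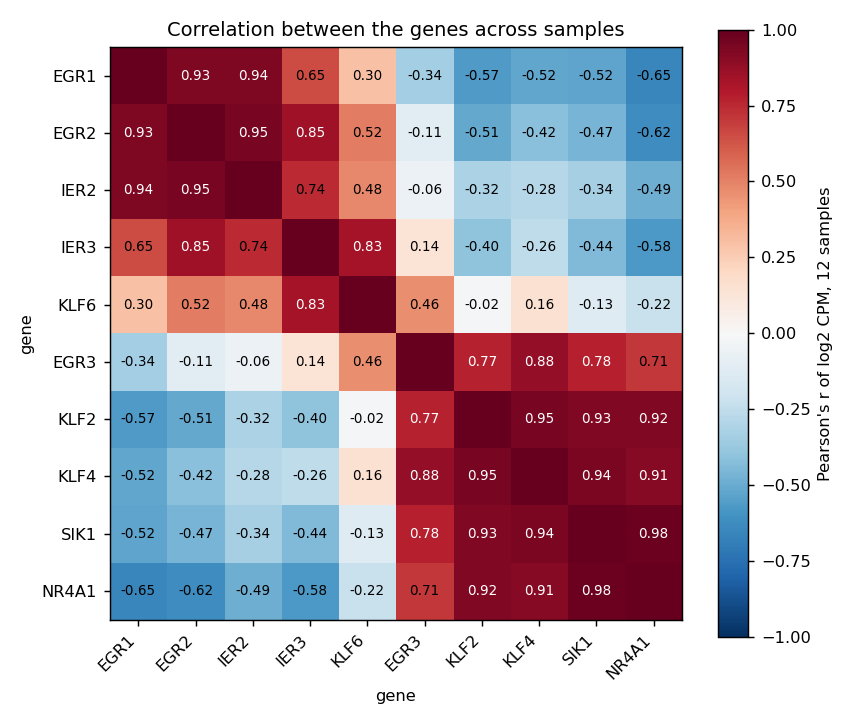
Pearson's r of log2 CPM between each pair of the 10 genes over the 12 samples (red: positive, blue: negative, number: r). EGR1, EGR2 and IER2 form a block of r from 0.934 to 0.948, and KLF2, KLF4, SIK1 and NR4A1 form another of 0.91 to 0.978.

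Among 11082 other genes with a symbol and a mean of at least 5 CPM, the highest r over the 12 samples was with NR1D1 for EGR1 (0.987), MYLIP for EGR2 (0.984), SNAI1 for IER2 (0.971), CEBPD for IER3 (0.981) and LOX for KLF6 (0.955). TACC1 was nearest to NR4A1 (0.991), MYADM to KLF2 (0.992), FOSB to KLF4 (0.977) and HDAC5 to EGR3 (0.961). SIK1 was nearest to the NR4A1 relatives NR4A3 (0.989) and NR4A2 (0.985), and NR4A3 was also second for NR4A1 (0.986). The mean of the 10 genes, each standardised, ran closest to PIM2 (0.968), DUSP5 (0.961), PFKFB3 (0.954), ATOSB (0.954) and PKP2 (0.95).

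Of the family relatives, 18 of 21 could be tested in the 8 treated against the 4 untreated samples, and 3 were lower and 2 higher, with a median log2 fold change of 0.0024, where 11.3% of all genes were called lower and 13.1% higher. Both other members of the NR4A family fell with NR4A1, NR4A3 by 2.06 (SE 0.22, adjusted p = 1.23e-05) and NR4A2 by 1.87 (SE 0.21, adjusted p = 1.72e-05). KLF15 rose by 0.64 (SE 0.20, adjusted p = 0.0249). Outside the rule for naming, and chosen after their values were seen, the other two calls were SIK2, a second salt-inducible kinase, which fell by 0.62, and IER5L, which rose by 0.43. EGR4 had no count in any sample.

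Of 25 genes listed as regulators of the 10 genes or of their proteins, 7 were lower and 1 was higher in the same comparison. Their median was -0.18, and 11.3% of all genes were called lower and 13.1% higher. Against C2 alone edgeR called 0 at the 3 lower doses and 1, lower, at 0.5 μM, where 1.96% of all genes were called lower. At the 3 lower doses 5, 5 and 9 had an unadjusted p-value under 0.05, as did 4280, 4732 and 5984 of all 25249 genes. In the 8 treated against the 4 untreated samples SRF itself fell by 0.64 (SE 0.15, adjusted p = 0.00467), MEF2C, which is downstream of the ERK5 route to KLF2 and KLF4, by 0.53 (SE 0.10, adjusted p = 0.00129), and MRTFB, an actin-regulated partner of SRF, by 0.53 (SE 0.12, adjusted p = 0.00389), and none of these 3 was called at any dose against C2. Of 21 other immediate early genes tested, 6 were lower and 1 was higher in treated against untreated samples, with a median of -0.24, beside the same shares of all genes. Against C2 0, 6, 3 and 8 were lower and 1 was higher at each dose in rising order. Over all genes 0.479%, 0.776%, 3.23% and 1.96% were called lower there, and 1.87%, 2.5%, 5.09% and 4.36% higher. The 1 higher gene was ARC, a cytoskeletal protein of synapses, which rose by 2.50 (SE 0.25, adjusted p = 6.85e-06), while FOSB fell by 2.00 (SE 0.33, adjusted p = 0.000455) and CCN2, a target of actin and stretch signals, by 0.92 (SE 0.18, adjusted p = 0.00192). CCN2 was not called at any dose against C2.

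Because the cells were warmed with enzymes before lysis, 10 heat shock genes were read beside them. In the 8 treated against the 4 untreated samples edgeR called 0 of the 10, with a median of -0.25, where 11.3% of all genes were called lower and 13.1% higher. An unadjusted p-value under 0.05 was found for 3 of the 10 and for 9332 of all 25249 genes. Against C2 edgeR called 0 at 0.0005 μM, 3 lower at 0.005 μM (median -0.39), 5 lower at 0.05 μM (median -0.52) and 4 lower at 0.5 μM (median -0.41), with none higher. Over all genes 0.479%, 0.776%, 3.23% and 1.96% were called lower at these doses. Between the untreated days HSPA6 was called, 1.45 higher in C2 than in C1 (adjusted p = 0.00948). Between 0.5 and 0.0005 μM edgeR called 4 of the heat shock genes lower, and the same 4 had a called negative slope over the 4 doses. Of all genes 0.337% were called lower in the first comparison and 2.04% had a called negative slope. These were HSPA1A, HSPA1B, HSPA6 and DNAJB1, stress-inducible chaperones, with slopes of -0.47, -0.54, -0.86 and -0.33 per 10-fold dose. The summed level of the 10, most of it from HSPA8 and HSP90AA1 (means of 2700.0 and 2233 CPM), was 6134 to 8999 CPM in the untreated and 4579 to 7477 CPM in the treated samples. The heat shock genes named here were chosen after their values were seen. The part of the dissociation in the levels of the immediate early genes was not tested.

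**Figure D4:**
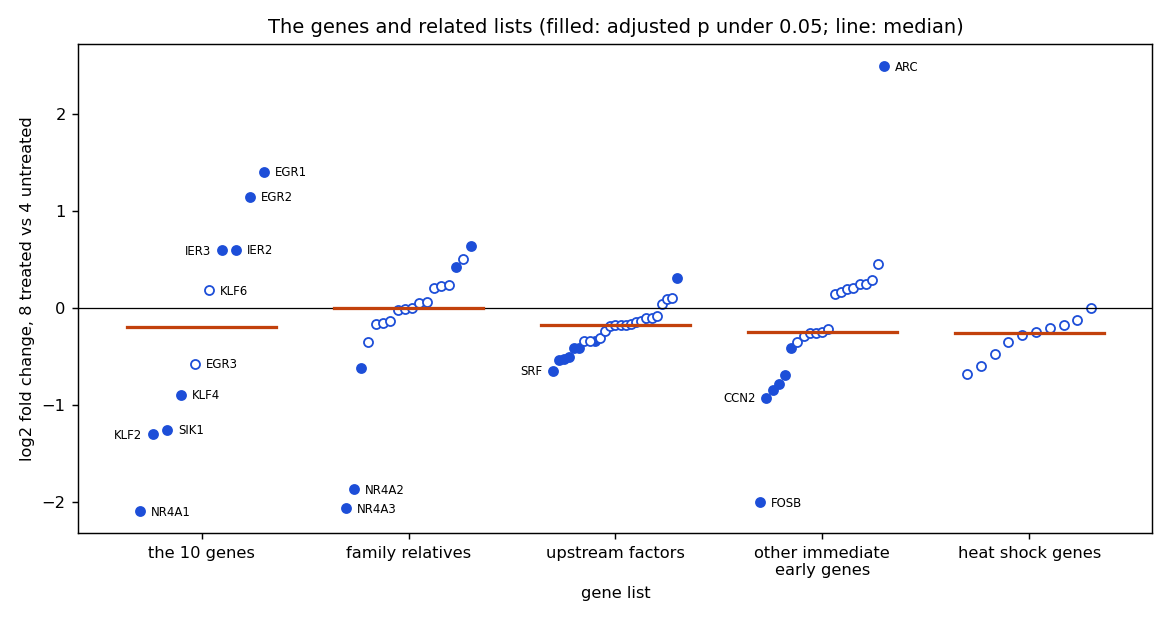
Log2 fold change of the 8 treated against the 4 untreated samples for the 10 genes and 4 related lists (points: genes tested, filled: adjusted p under 0.05, orange line: median of the list). The 10 genes spread from -2.09 for NR4A1 to 1.41 for EGR1, and NR4A2, NR4A3 and FOSB lie beside NR4A1 while ARC at 2.50 lies above EGR1.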

How the data were processed

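Total RNA of 12 samples was sequenced in pairs of 100-base reads. The authors removed adapters and low quality bases with Trimmomatic 0.39, checked quality with FastQC 0.11.9, aligned the reads to GRCh37 with STAR 2.7.5 and kept reads with a unique position. The deposited values are their whole-number counts of reads in exons per gene, neither normalized nor pooled. From these, edgeR 4.0.16 in R 4.3.3 was used with TMM factors, its expression filter by condition, and robust quasi-likelihood fits over 25249 genes. The 6 conditions were 1 factor, or treated against untreated, or log10 dose in the treated samples. CPM on the log2 scale used a prior count of 2. DESeq2 1.42.0 and other settings served as alternatives. On simulated counts for 0.5 μM against C2 (25249 genes), 77.7% of 2-fold and 100% of 4-fold changes were recovered, with 6 false calls of 183. The simulation gave every gene the same spread and changed only genes with high counts. NR4A1, SIK1 and KLF2 varied more (27.4%, 22.9% and 21.9% against 15.6% for all genes together), so these rates need not hold for them. Precision is limited by 2 samples per condition, at totals of 38380629 to 79169121 counts. The 10 genes and the lists were chosen with earlier results of these data known. From each list at most 3 further genes were named, those called in the treated against the untreated samples at a mean of at least 1 CPM with the largest change. The heat shock genes and a few relatives fall outside this rule and were named after their values were seen.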

Additional observations from a re-analysis of the deposited data

How the results depend on the processing

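In the 8 treated against the 4 untreated samples, 8 members were called, and between 7 and 9 under every alternative run and every sample left out, each called member in the direction given. KLF6, not called, was -0.087 with C2 as the only control. Over all genes, GC and length offsets moved the calls there from 2860 lower among 6155 to 2341 lower among 6534, and left the members at 4 lower and 4 higher. The other comparisons moved as follows, and the cause was not tested. At 0.05 μM against C2 between 6 and 8 members were called in the alternatives other than leaving out a sample, and for 0.5 against 0.05 μM 0 in each alternative run. At 0.0005 μM against C2 the count of 1 became 6 by DESeq2, 7 with a filter of 1 count, 6 with GC and length offsets, 7 with the 4 samples of the comparison and 7 with both untreated days as control. Calls over all genes rose there too, from 592 to 1173, 1480 of 48909 tested, 1236, 2624 of 21835 tested and 2085. At 0.005 μM against C2 the 4 became 7 with both untreated days as control (all genes 827 to 3401). For C2 against C1 the 0 became 2 by DESeq2, 1 with the filter of 1 count, 1 with a filter of mean count 10 and 2 with the offsets, with 82 calls over all genes becoming 274, 390, 85 and 199. For 0.5 against 0.0005 μM the 0 became 2 by DESeq2, 2 with the filter of 1 count, 2 with the offsets and 4 with the 4 samples alone (all genes 104 to 592, 895, 364 and 1662), and for 0.05 against 0.005 μM 1, 2, 1 and 3 in the same order (all genes 0 to 30, 145, 17 and 348). The slope's 1 became 4 by DESeq2, 2 with RLE factors, 5 and 2 with the filters and 2 with the offsets, with 773 calls over all genes becoming 1635, 855, 1459, 819 and 1431.

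Same-numbered samples went together in some pairs of conditions and apart in others. Their deviations from the condition means correlated above 0.1 in 8 of 15 pairs of conditions, over a range from -0.6 to 0.682, and in 3 of 6 conditions both samples went best with their own number. With a replicate block 4 members were called at 0.0005 μM against C2, 1 for C2 against C1 and 0 for the slope, where KLF2 lost its call (adjusted p = 0.0556), with 673, 92 and 420 calls over all genes. The block with the offsets gave 6, 2, 2 for 0.5 against 0.0005 μM and 1 for 0.05 against 0.005 μM, with 1255, 191, 433 and 21 over all genes, where the block changed no other count by over 1.5 times.

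Leaving out 1 sample at a time gave 0 to 8 members called at 0.0005 μM, 0 to 6 at 0.005 μM, 1 to 8 at 0.05 μM and 1 to 9 at 0.5 μM against C2 (all genes 144 to 2552, 85 to 3316, 321 to 4843 and 129 to 5046), 0 to 7 for C2 against C1, 0 to 3 for 0.5 against 0.0005 μM, 0 to 3 for 0.05 against 0.005 μM and 0 to 4 for the slope. The 7 came without C1 replicate 1, where calls over all genes rose from 82 to 2682, and the 3 for 0.5 against 0.0005 μM without either C1 sample, where they rose from 104 to 1314 and 1412. The 3 for 0.05 against 0.005 μM came without C1 replicate 2 (0 to 110) and the 4 for the slope without 0.05 μM replicate 2 (773 to 990). Of 2240 single-gene values under alternatives, 1963 kept direction and side of the threshold, 154 passed it, 88 lost it and 35 changed sign, and the cause was not tested. In none of the 35 was the gene called under the alternative that changed its sign or in the reported fit. They include KLF6 at 0.005 and 0.05 μM with both untreated days as control (0.21 each), NR4A1 for C2 against C1 by DESeq2 (-0.0049) and with RLE factors (-0.0062), EGR2 for 0.5 against 0.0005 μM with the offsets (0.083) and with the block and offsets (0.085), and KLF6 for 0.05 against 0.005 μM with the filter of 1 count (0.020), with named identifiers alone (0.016) and with the 4 samples (0.019). Some of the same genes were called in other alternatives, such as EGR1 and IER2 for C2 against C1 without C1 replicate 1, and IER3 at 0.005 and 0.5 μM with both untreated days as control. With 1 sample left out, IER3 ran from -0.013 to 0.26 at 0.005 μM and from -0.041 to 0.23 at 0.5 μM. For C2 against C1 EGR1 ran from -0.28 to 0.68, IER2 from -0.18 to 0.59, NR4A1 from -0.52 to 0.96, KLF2 from -0.57 to 0.63 and SIK1 from -0.29 to 0.87. EGR2 ran from -0.097 to 0.069 for 0.5 against 0.0005 μM. For 0.05 against 0.005 μM EGR3 ran from -0.13 to 0.25, NR4A1 from -0.12 to 0.43 and KLF6 from -0.050 to 0.041, and NR4A1 from -0.52 to 0.012 for 0.5 against 0.05 μM. The slopes of SIK1 and IER2 ran from -0.093 to 0.0029 and from -0.020 to 0.048.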
